A study of Mus musculus with 6 samples.

Results

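The Bach, Maf and Nrf2 transcription factors were examined at 8 mouse genes: Nfe2l1, Nfe2l2, Bach1, Bach2, Mafk, Mafg, Maff and Maf. ATAC-seq, which marks open chromatin by the insertion of sequencing adapters with the Tn5 transposase, had been run on microglia, the resident macrophages of the brain, sorted from C57BL/6J mice labelled as 8 weeks old. The 3 libraries labelled cKO came from Mir137 loxP/loxP;Tmem119-CreERT2 mice, and the 3 labelled cWT from Mir137+/+;Tmem119-CreERT2 mice, with about 50000 cells for each genotype. Both genotypes therefore carried the tamoxifen-inducible recombinase driven by the microglial gene Tmem119, and tamoxifen was given for 7 days from 7 to 8 weeks of age. The control lacks floxed alleles, and the series states n = 4 mice without tying them to libraries. The values used are 1 list of genotype-specific peaks per genotype, 8615 in cKO and 3490 in cWT, with no value per library. No spread between replicates, depth or test over animals can be had from them, and in sorted bulk chromatin a change in the mix of cells and a change within cells cannot be told apart.

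Peaks were taken for a gene when their midpoint was nearer to one of its ends than to any other end of a protein-coding gene, within 100 kb, or lay inside its span. By this rule 21 of the 12105 listed peaks belonged to the 8 genes, 15 specific to cKO and 6 specific to cWT. Nearness does not show which gene a peak regulates. The lists hold no direct measure of the deletion, since the peak closest to Mir137 lay 1280 kb away in cKO and 995 kb away in cWT. Over all 21887 coding genes, 23.8% had a peak specific to cKO and 12.3% a peak specific to cWT. Of 10 microglial marker genes, 8 had a cKO-specific and 2 a cWT-specific peak, and of 6 neuronal markers 1 had a peak of each list. Among markers of other cells, cKO-specific and cWT-specific peaks occurred at 3 and 1 of 4 vascular, 3 and 1 of 4 astrocyte, 2 and 1 of 4 oligodendrocyte-lineage, 2 and 2 of 5 other macrophage and monocyte, and 2 and 1 of 4 lymphocyte genes; their part in the results below was not tested.

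All 8 factors belong to the basic leucine zipper superfamily. The proteins NRF1 (from Nfe2l1) and NRF2 (from Nfe2l2) activate, and BACH1 and BACH2 mostly repress, genes that carry antioxidant response elements, and they bind DNA as partners of the small MAF proteins MAFK, MAFG and MAFF. Heme binding releases BACH1 from its targets, among them the heme oxygenase gene Hmox1, and oxidative stress frees NRF2 from its inhibitor KEAP1. BACH2 is best known for restraining effector programmes of lymphocytes, and c-MAF, the product of Maf, is a large MAF protein with its own activation domain that shapes macrophage and T cell genes.

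The microRNA removed in cKO is shown with its seed, bases 2 to 8, in capitals, because its complement was one of the motifs searched in the members' promoters. The sequences are from RefSeq, build GRCm38.p6, and the microRNA lies on chromosome 3, plus strand, from 118433901 to 118433923.
mmu-miR-137-3p: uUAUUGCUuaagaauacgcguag

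The RefSeq promoter table (250 bases before to 50 from each start) held 13 promoters of 7 of the 8 members. Maf was not in it, and for Bach2 it held only an internal start, so the sequence at the Bach2 gene start was not searched. No specific peak of either genotype overlapped any of the 13. The promoter nearest to a specific peak was that of Bach1 (chr16:87698704-87699003, plus strand), 770 bp before a cKO-specific peak. It is printed for that reason, and its capitals mark AGCAATA, the DNA match to the miR-137-3p seed.
Bach1 promoter: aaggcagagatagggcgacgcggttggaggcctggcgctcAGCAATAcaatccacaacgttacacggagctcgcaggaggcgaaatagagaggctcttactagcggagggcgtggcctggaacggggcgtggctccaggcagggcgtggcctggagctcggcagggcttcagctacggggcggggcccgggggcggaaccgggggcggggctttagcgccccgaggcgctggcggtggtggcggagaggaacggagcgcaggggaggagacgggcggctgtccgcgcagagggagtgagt

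The seed match began 210 bases before the Bach1 start, so it lies outside a transcript that begins there. Searched on both strands, the 7 letters occurred in 709 of 32851 promoters (2.16%) and at 1.97% of coding genes. Among the 7 members in the table they occurred at Bach1 alone. The antioxidant response element core TGACNNNGC occurred at 4 of the 7, Nfe2l2, Mafk, Mafg and Maff, against 14.8% of 17492 coding genes with a promoter in the table (12.4% of all promoters). These are the stretches around it, read on the gene's strand, with the match in capitals; at Mafk and Mafg the core is on the opposite strand.
Nfe2l2 (chr2:75704883-75704913, minus): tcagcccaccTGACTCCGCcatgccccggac
Mafk (chr5:139791511-139791543, plus): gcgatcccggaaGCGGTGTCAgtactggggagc
Mafg (chr11:120633749-120633781, minus): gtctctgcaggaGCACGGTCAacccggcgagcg
Maff (chr15:79346497-79346529, plus): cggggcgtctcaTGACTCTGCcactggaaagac

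The cores began 240 bases before the start at Nfe2l2, 13 at Mafk, 222 at Mafg and 112 at Maff. The palindromic E-box CACGTG was also found in a promoter of each of the 3 small Maf genes, against 8.91% of coding genes, and in no promoter of the other 4 members in the table. Both motifs were present, in the same or in different promoters of the gene, at 1.97% of coding genes. At Mafk and Mafg they were in the same promoter, and at Maff in different promoters. The AP-1 letters TGANTCA were in none of the 13 promoters, against 7.81% of all promoters. The ETS core GGAA was at all 7 members, as at 96.4% of coding genes. These are matches of letters in a fixed window, not shown binding sites, and the 3 small Maf genes with both motifs had no specific peak.

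Of the 8 members, 4 carried a peak specific to cKO, namely Nfe2l2, Bach1, Bach2 and Maf, where 23.8% of the 21887 coding genes had one. In the cWT list 3 of the 8 carried one, Bach1, Bach2 and Maf, where 12.3% of coding genes had one. The same 3 genes carried peaks of both lists, where 6.78% of coding genes did. The members were proposed with earlier results of these data known, so these counts are a description. The cKO share of the members' peaks was 71.4% (15 of 21, exact Clopper-Pearson 95% interval 47.8 to 88.7%, counting error only), beside 71.2% of all listed peaks. The stretches assigned to the members held 14.9 cKO-specific and 5.98 cWT-specific peaks per Mb, beside 4.37 and 1.76 over all coding genes. How much of this density is shared by other genes active in microglia was not tested.

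**Figure D1:**
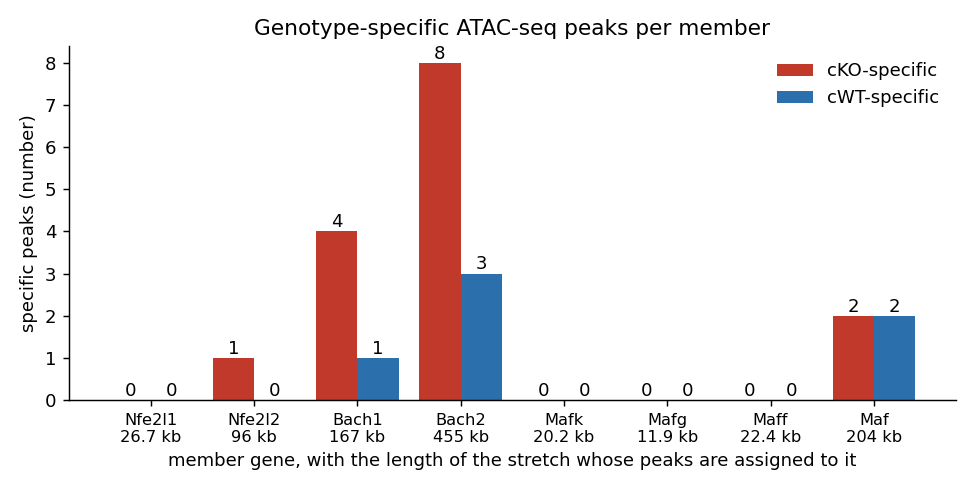
Number of genotype-specific peaks (vertical axis) assigned to each member, red for cKO and blue for cWT, with the length of each gene's assigned stretch under its name. Bach2, with the longest stretch of 455 kb, has 8 and 3 peaks, and the 4 genes with stretches of 11.9 to 26.7 kb have none.

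Of the activators, Nfe2l2 (chromosome 2, 75675513 to 75704663, minus strand), which encodes NRF2, had 1 cKO-specific peak and none in cWT. This peak (chr2:75731068-75731746) lay 26744 bp upstream of the gene's start, outside every annotated gene, with the lncRNA gene E030042O20Rik as its nearest neighbour at 20287 bp. It was 679 bp wide, wider than 96.0% of cKO-specific peaks. Its deposited p-value of 0.309 was the lowest of the 21, and 4.67% of the cKO list had a lower one. Its signal of 20.5 exceeded that of 72.5% of the list. In cWT the closest specific peak lay 83941 bp from the gene and was assigned to its neighbour Agps.

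Nfe2l1 (chromosome 11, 96817414 to 96829968), which encodes NRF1, a factor that raises proteasome genes when proteasomes fail, had no specific peak. The nearest was 108603 bp away in cKO, assigned to Prr15l, and 196288 bp away in cWT, assigned to Sp6. Peak names carry numbers that rise along the genome, read here as a count of all called peaks, so that skipped numbers stand for called peaks that are not listed. Between the listed peaks that flank the Nfe2l1 stretch, 11 numbers were skipped over 805 kb in cKO and 22 over 1280 kb in cWT. Called peaks thus occur in the region, at unknown positions, and having no specific peak does not mean closed chromatin.

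Bach1 (chromosome 16, 87698954 to 87733346, plus strand), the gene of the heme-regulated repressor, had 4 cKO-specific peaks and 1 cWT-specific peak. The strongest, at chr16:87699774-87700386, had its midpoint 1126 bp inside the gene, the shortest distance from a gene end among the 21. Its signal of 33.0 was the highest of the members and above 96.4% of the cKO list, it was 613 bp wide, and its p-value was 0.376. This is the peak beside the promoter printed above.

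The other Bach1 peaks lay within the gene and on both sides of it. One cKO-specific peak (chr16:87655020-87655521, signal 17.0) lay 43684 bp upstream of the start. A second lay inside the gene, 15995 bp from its far end (chr16:87717172-87717531), and its signal of 5.91 was among the lowest, with 0.348% of the cKO list below it. Past the far end, inside the lncRNA gene Gm32925, were a cKO-specific peak at 13581 bp (chr16:87746819-87747035, signal 20.2) and the single cWT-specific peak at 21725 bp (chr16:87754934-87755209, signal 21.4). Thus both Bach1 peaks within the gene were cKO-specific, and peaks of both lists lay beyond it. The cKO share of 80.0% has an exact interval of 28.4 to 99.5%, which includes 71.2%. The 4 cKO-specific peaks fell among 10 consecutive peak numbers, counted from the first of them to the last. Between the listed cKO peaks that flank the Bach1 stretch, 2370 kb apart, there were 18 numbers, of which the same 4 were listed. Over the whole genome, 25.8% of cKO numbers are listed. The first window begins and ends on listed peaks and the second leaves them out at its ends. Neither is thus directly comparable with the genome share.

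Bach2 (chromosome 4, 32238413 to 32586109, plus strand) is the longest member, with 347697 bp, and 2.02% of coding genes are longer. It had 8 cKO-specific and 3 cWT-specific peaks, of which 6 and 3 lay inside the gene. Under the same rule 14 coding genes had more cKO-specific peaks, and 39 had more cWT-specific peaks. With ties and Bach2 itself counted, 29 had at least as many cKO-specific and 156 at least as many cWT-specific peaks. Its assigned stretch held 17.6 and 6.59 peaks per Mb. From first to last, the 8 cKO-specific peaks spanned 30 peak numbers and the 3 cWT-specific peaks 15, so the stretch also held many called peaks that are not listed. Between the flanking listed peaks there were 44 cKO numbers, 8 of them listed, and 38 cWT numbers, 3 of them listed. Those flanks were 8200 and 8430 kb apart. Over the whole genome, 25.8% of cKO numbers and 12.1% of cWT numbers are listed, and the windows' ends shape the local shares here too. Its cKO share of 72.7% (39.0 to 94.0%) lay next to that of all peaks. One other coding gene had the same pair of counts, Etv6, which encodes an ETS-family repressor; Bach1 shared its pair of 4 and 1 with 47 genes, the first by symbol being Akna, Arhgap23, Arhgap25, Armh3 and Asph.

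Upstream of Bach2, a cKO-specific peak of 803 bp, the widest of the members, lay at chr4:32170162-32170964, 67850 bp from the start and inside the lncRNA gene Gm42266. A second cKO-specific peak lay 9030 bp before the start (chr4:32229126-32229640), 867 bp from the tRNA gene n-TGccc3. These had signals of 17.8 and 15.6.

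Inside Bach2, read from its start, a cWT-specific peak (chr4:32279968-32280171, signal 9.64) and a cKO-specific peak (chr4:32280476-32280684, signal 20.1) stood side by side with 304 bp between them, 41656 and 42167 bp after the start. A further cWT-specific peak followed at chr4:32288455-32288901, with a signal of 8.90. A lone cKO-specific peak lay 134931 bp from the nearest gene end (chr4:32373158-32373530, signal 12.7), past the distance limit and counted through the span. The start that the promoter table gives for Bach2, at 32417435, is an internal one, and the nearest cKO-specific peak was 43654 bp from that promoter.

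In the late part of Bach2, cKO-specific peaks lay 67532, 48784, 14440 and 10698 bp before the gene's far end. The second of them (chr4:32537149-32537502, signal 10.3) again had a cWT-specific neighbour (chr4:32537884-32538156, signal 15.2), 381 bp away. The third (chr4:32571535-32571803) had its midpoint 7 bp past an end of Bach2os, the antisense lncRNA gene at the Bach2 locus, and a signal of 6.25. The fourth (chr4:32575300-32575522) had a signal of 7.22. The Bach2 peaks were mostly weak for their lists: 2 of 8 cKO-specific and 1 of 3 cWT-specific peaks had a signal at or above the list's median, against 3 of 4 cKO-specific peaks of Bach1. No Bach2 peak had a deposited p-value up to 0.5, but few listed peaks did: 1042 of 8615 in cKO and 215 of 3490 in cWT.

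**Figure D2:**
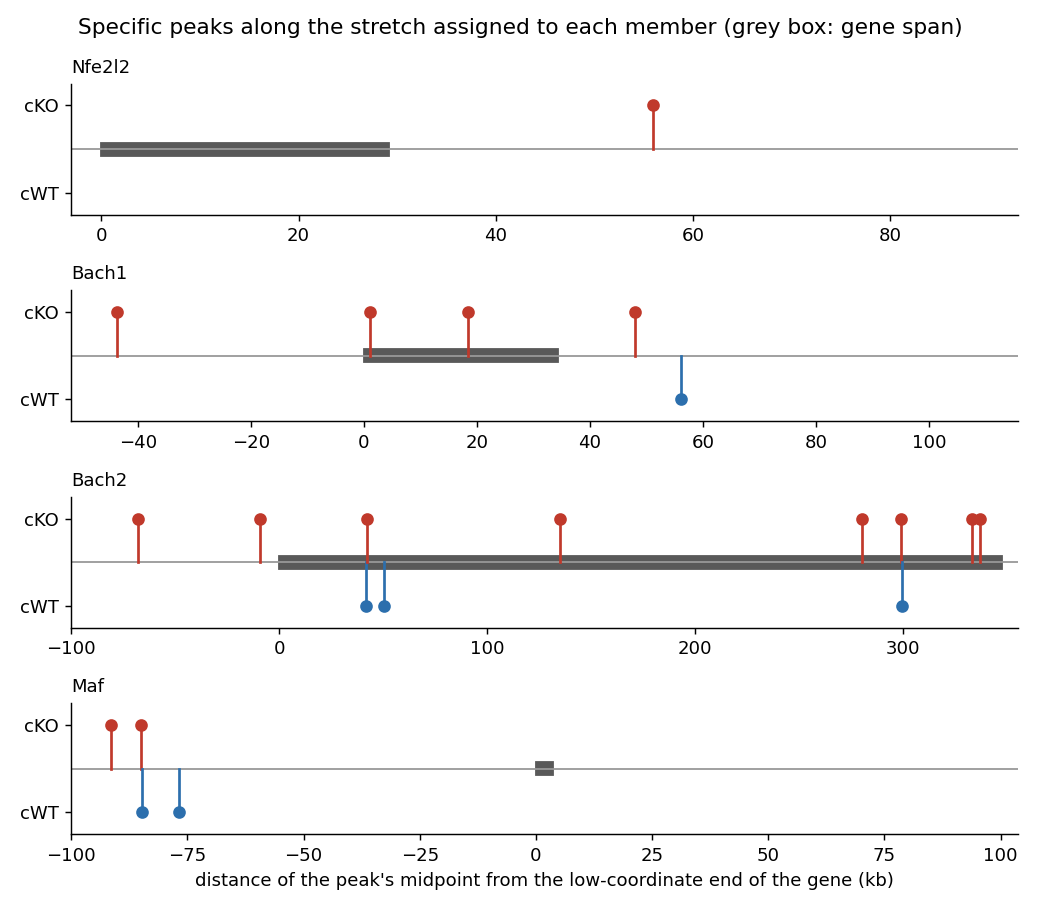
Position of each specific peak (midpoint, in kb from the low-coordinate end of the gene) at the 4 members with peaks, cKO above and cWT below the line, grey box for the gene span; each panel shows the whole assigned stretch. The Bach2 peaks extend from upstream to near its far end, and the Maf peaks all lie 76692 to 91414 bp to one side of the gene.

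The small Maf genes encode short partners without an activation domain, which all NRF and BACH proteins need for DNA binding. None of them had a specific peak in either list. Mafk (chromosome 5, 139791536 to 139802653) was 235596 bp from the nearest cKO-specific and 492512 bp from the nearest cWT-specific peak. Mafg (chromosome 11, 120625117 to 120634955) was 114352 bp from a cKO-specific peak assigned to Slc25a10 and 24140 bp from a cWT-specific peak assigned to Notum. Maff (chromosome 15, 79346621 to 79359078) was the closest of the 3 to a cKO-specific peak, that of Pla2g6 at 23016 bp, and had a cWT-specific peak of Tmem184b at 32624 bp.

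The small Maf genes lie in gene-dense stretches, so their assigned territory is short. The 4 members without a peak together had 0.0812 Mb, beside 0.455 Mb for Bach2. Numbers skipped between the flanking listed peaks were 13 in cKO and 33 in cWT at Mafk, 11 and 30 at Mafg, and 6 and 4 at Maff. At Maff the flanking peaks were 85.6 kb apart in cKO and 114 kb apart in cWT, the tightest of the members. Whether the members without a peak differ from the others beyond the length of their stretches was not tested.

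Maf (chromosome 8, 115703253 to 115706894), 3642 bp in the RefSeq table, had 2 peaks of each list, all on one side of the gene within the lncRNA gene Gm39256 (115575576 to 115644889). In order of position they were cKO-specific at chr8:115611731-115611947 with a signal of 7.77, cKO-specific at chr8:115618058-115618421 with 20.7, cWT-specific at chr8:115618416-115618656 with 25.3, and cWT-specific at chr8:115626450-115626672 with 16.8. The middle pair overlapped by 6 bp, with midpoints 297 bp apart. The cWT-specific peak of this pair had a p-value of 0.378, and 3.18% of the cWT list had a lower one. Just past the limit, at 104881 to 120880 bp, lay 3 further cKO-specific peaks and no cWT-specific peak; just inside it was the cKO-specific peak at 91414 bp. With a limit of 150 kb, chosen after the values were seen, Maf thus had 5 cKO-specific and 2 cWT-specific peaks, so the even balance at Maf rests on the limit.

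At 3 places in these genes' stretches, peaks of the 2 lists lay close to each other. A cWT-specific peak within 500 bp, a distance chosen after the values were seen, was found for 3 of the 15 cKO-specific member peaks (20%), beside 4.38% of the cKO list. In the other direction it was 3 of 6 (50%), beside 10.6% of the cWT list. These are the pairs at Bach2 (gaps of 304 and 381 bp) and at Maf (the overlap of 6 bp) described above. Both shares count the same 3 pairs, and those at Bach2 are separate peaks that do not overlap. The members' stretches also held more peaks per Mb (14.9 and 5.98) than all coding genes (4.37 and 1.76). Whether that density alone would give such shares was not tested.

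None of the 21 peaks lay within 1000 bp of an end of a coding gene, where 13.7% of cKO-specific and 15.9% of cWT-specific peaks lay. The distance to the nearest coding end ranged from 1126 to 134931 bp in cKO (median 42167) and from 21725 to 84717 bp in cWT (median 49177), beside medians of 12412 and 15635.5 bp for the whole lists. Inside a coding gene were 8 of 15 cKO-specific and 3 of 6 cWT-specific member peaks, all 11 in Bach1 or Bach2 itself, against 59.7% and 60.4% of the lists. Exons and introns were not distinguished by the gene table used here.

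By the median, the cKO-specific member peaks were somewhat wider than their list and the 6 cWT-specific ones narrower. Median width was 360 bp in cKO (range 209 to 803) and 257 bp in cWT (204 to 447), beside 314 and 322 bp in the lists. Median signal was 15.6 and 16.0, beside 16.5 and 13.7; signals have no stated scale and are not compared between lists. The member peaks' p-values ran from 0.309 to 0.976 in cKO and from 0.378 to 0.973 in cWT, and adjusted p-values from 0.979 to 0.980 and at 0.981, so no member peak passed any usual threshold. This holds for adjusted p-values in both whole lists, where the lowest deposited was 0.194 in cKO and 0.231 in cWT. All member peaks were named secondary by the authors, and 2.82% of the cKO list and 1.38% of the cWT list were named primary. No source used here states the hypothesis behind the deposited p-value.

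**Figure D3:**
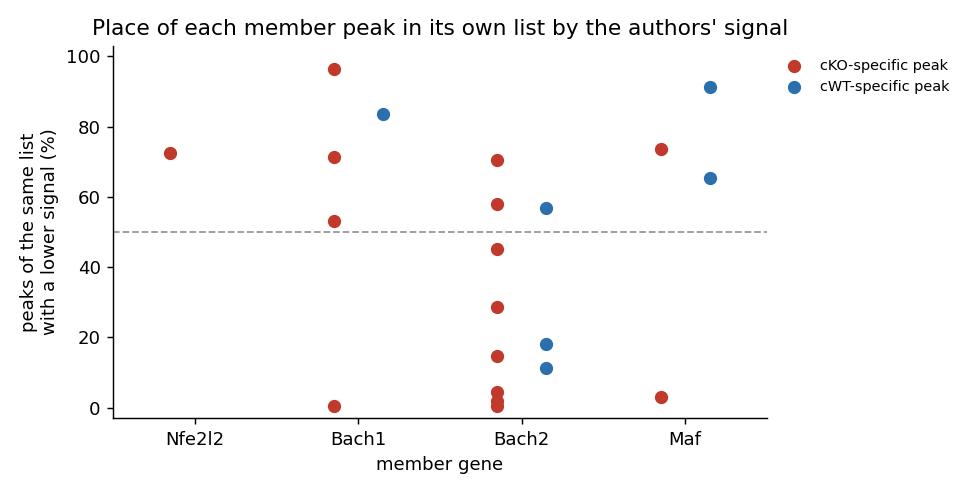
Percentage of peaks of the same list with a lower deposited signal (vertical axis) for each member peak, red for cKO and blue for cWT; the dashed line is the list's median. The Bach1 peak beside its promoter stands highest at 96.4%, and 6 of 8 cKO-specific Bach2 peaks lie below the median.

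The other genes of the pathway were read from lists fixed with earlier results known. Of 4 relatives, Nfe2l3, an NRF1-like factor gene, had 1 cKO-specific peak, Nfe2, the erythroid founder of the family, had 1 cWT-specific peak, and Mafa and Nrl had none. A cKO-specific peak was thus at 25.0% of these 4, beside 23.8% of coding genes, and a cWT-specific peak at 25.0%, beside 12.3%. The Nfe2l3 peak (chr6:51432569-51432917) had its midpoint 74 bp inside one end of the gene. Of 7 genes that control NRF2 stability, 2 had a peak, and so did 29.4% of coding genes. Btrc, a ubiquitin ligase subunit gene, had 1 peak in cKO and 2 in cWT, and Gsk3b, a kinase gene, had 1 and 0. Keap1, Cul3, Rbx1, Sqstm1 and Syvn1 had none.

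Of 22 antioxidant and heme genes that NRF2 or BACH1 are known to control or that act with them, 6 had a cKO-specific and 5 a cWT-specific peak, and 13 had neither, with medians of 0 peaks in each list as over all coding genes. These are 27.3% of the list in cKO, beside 23.8% of coding genes, and 22.7% in cWT, beside 12.3%; the difference was not tested. Blvra, the biliverdin reductase gene, had 2 of each: at one end of the gene a cKO-specific peak (chr2:127070480-127070869, signal 32.4) and a cWT-specific peak (chr2:127070109-127070512, signal 35.0) overlapped. Gclc, the catalytic subunit gene of glutathione synthesis, had 3 peaks specific to cWT and none in cKO, the second of which was 170 bp inside the gene. The third lay outside it, 34196 bp away, and had a deposited p-value of 0.0715. Abcc1, an exporter of glutathione conjugates, had 2 and 1, and Cat, the catalase gene, 2 and 0. Por had 2 and 0, Txnrd1 0 and 2, Me1 0 and 1, and Slc7a11 and Srxn1 1 and 0 each. Hmox1, Nqo1, Gclm and Slc40a1 were among the 13 genes with no specific peak.

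Of 8 partners and targets of BACH2 and MAF, 3 had a cKO-specific and 3 a cWT-specific peak, or 37.5% in each list, beside 23.8% and 12.3% of coding genes. Prdm1, the gene of the repressor BLIMP1 that BACH2 is known to hold down, had 4 and 2. The 2 cWT-specific peaks there adjoin (chr10:44607361-44607610 and chr10:44607611-44607879, both with a signal of 17.8), so they may be parts of 1 region. Bcl6, a repressor that works with BACH2, had 3 and 0, all within 4866 bp of a gene end. Those at chr16:23984295-23984511 and chr16:23984706-23984943 lie close together and may also be parts of 1 region. Ccr2, a monocyte chemokine receptor gene, had 1 and 1, and Mrc1, a mannose receptor gene of border macrophages, 0 and 1. Il10, Il21, Cd163 and Spic had none.

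**Figure D4:**
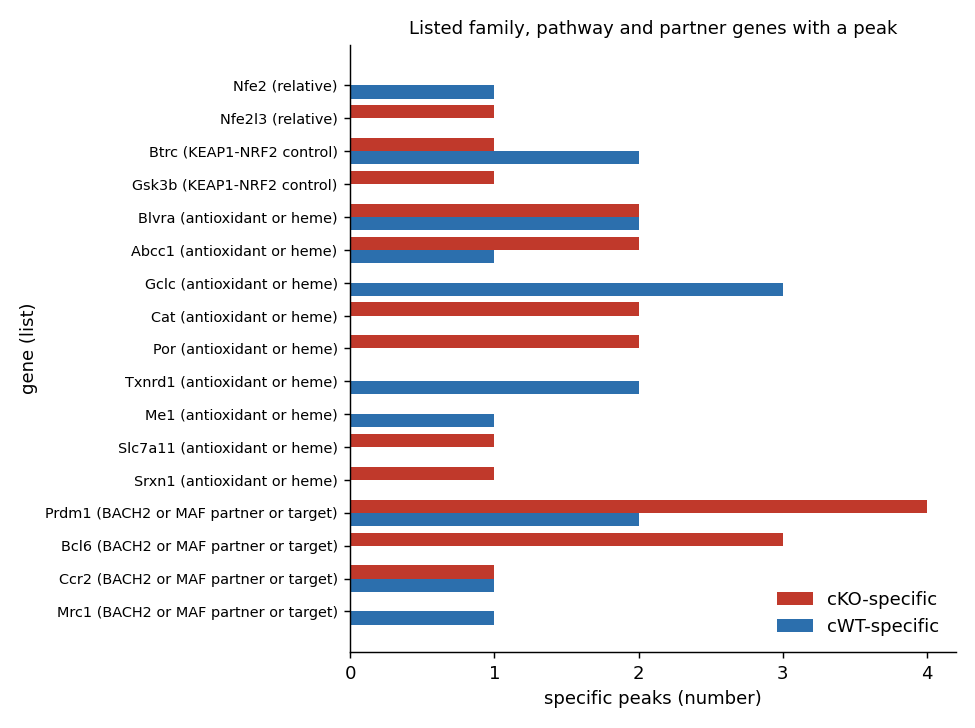
Number of cKO-specific (red) and cWT-specific (blue) peaks (horizontal axis) at each gene of the 4 fixed lists that had a peak, with its list in brackets. Prdm1 has the most with 4 and 2, and Gclc has 3 cWT-specific peaks and no cKO-specific peak.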

How the data were processed

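The authors deposited 1 headerless peak list per genotype, named as specific to it, from 6 ATAC-seq libraries. The tools named in the submitters' processing notes are HOMER 4.11, MACS2 2.2.7.1 and Bowtie2 2.4.4, with builds GRCm38 and mm10. Which step each did, any read shift for the transposase, the pooling of replicates and the choice of specific peaks: not given in the sources used here. The score the authors deposited is a rewriting of the p-value they deposited (log2 of it times -125, without decimals) in each of the 12105 peaks. The authors gave no scale for the deposited signal, and columns were read as signal, p-value and adjusted p-value from their layout. No per-library values were used, so depth is unknown.

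Peaks were assigned to 21887 coding genes of a RefSeq table (GRCm38.p6, starts converted to 1-based) and the assignment was checked by brute force on simulated positions. Promoters and microRNAs came from RefSeq tables of that build. No test was run. The members and gene lists were chosen with earlier results of these data known. The result of 1 listed gene is not reported here. All members are named with every peak; of each other list, at least the up to 4 genes with the most peaks are named, and the Nfe2l3 and Gclc peaks, the targets with no peak and the distance of 500 bp were singled out after their values were seen. Alternatives covered the limit, span, competing genes, merging, p-value and score. Python 3.11.15, pandas 2.3.3, scipy 1.17.1 and matplotlib 3.10.9 were used.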

Additional observations from a re-analysis of the deposited data

How the results depend on the processing

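Over 9 alternatives the cKO share of member peaks ran from 63.6% to 75.0%, within the exact interval of the reported 71.4% in each. Most alternatives count part of the same peaks and the interval is wide, so staying within it says little. The counts moved more. A limit of 10 kb gave 9 cKO-specific and 3 cWT-specific peaks, with 2 and 1 members carrying one. Counting only peaks inside a member's span, or letting all annotated genes compete, gave 8 and 3 peaks at 2 and 1 members, Bach2 being the one with both; Maf and Nfe2l2 had none in these 3 settings. With a limit of 50 kb, 12 and 4 peaks lay at 3 and 2 members, and Maf again had none. Only peaks with a deposited p-value up to 0.5 gave 2 and 1 peaks at 2 and 1 members: cKO-specific ones at Nfe2l2 and Bach1, a cWT-specific one at Maf, and none at Bach2. Of the whole lists, 1042 of 8615 cKO-specific and 215 of 3490 cWT-specific peaks had such a p-value. At or above the median score of each list there were 7 cKO-specific peaks. Of 45 values, 28 stayed within 1.5 times the reported count or within the interval, and 9 of these 28 are the share. The cKO-specific peak count stayed in 4 of 9 alternatives, and each of the other counts in 5. A limit of 150 kb was added after the data were seen. Neither the spread between animals nor a difference in depth between genotypes, which can lengthen a list, can be measured from lists of peaks. No replicate could be left out and no paired analysis was possible because nothing was given per library in these lists.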
